A study of Mus musculus with 6 samples.

Results

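The proteasome is the protease complex that degrades proteins tagged with ubiquitin. Its barrel-shaped core particle is built from alpha rings (Psma genes) and beta rings (Psmb genes), and the cutting sites sit on the beta subunits encoded by Psmb5, Psmb6 and Psmb7. A regulatory particle of ATPases (Psmc genes) and non-ATPase subunits (Psmd genes) binds, unfolds and feeds the substrates. In cells exposed to interferon, Psmb8, Psmb9 and Psmb10 take the place of Psmb5, Psmb6 and Psmb7, and Psme1 and Psme2 form an alternative cap; this immunoproteasome produces peptides for presentation on MHC class I molecules.

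All genes whose symbol is Psma, Psmb, Psmc, Psmd or Psme followed by a number were taken as members, which gave 43 of the 24517 genes in the deposited tables. They comprised 14 subunits of the constitutive core, 20 of the regulatory particle, the 5 immunoproteasome genes named above, the other activators Psme3 and Psme4, and the tissue-restricted core subunits Psma8 and Psmb11. The Psmd series includes Psmd5, Psmd9 and Psmd10, which are assembly chaperones of the regulatory particle rather than parts of the finished complex. Measured values did not enter the choice of members.

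RNA sequencing of colon tissue gave 3 libraries of Nsd2fl/fl and 3 of Nsd2ΔIE mice on a C57BL/6J background, and every animal had received HFCD (a diet rich in fat and cholesterol), with 16 weeks given as the duration in the labels. NSD2 is a histone methyltransferase. Nsd2ΔIE mice carry floxed Nsd2 and a Cre recombinase driven by the Villin promoter, which is active in intestinal epithelium, whereas Nsd2fl/fl mice carry the floxed gene without Cre. The deletion therefore concerns epithelial cells, while the libraries hold RNA of every cell type in the tissue, so that fewer cells of a type and less RNA per cell cannot be told apart. The methods of the study describe male littermates that were young adults at the start of feeding, and whether each library is 1 animal is not stated.

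Library totals lay between 38041832 and 38604680 counts. Nsd2 itself had from 1840 to 2455 counts in the Nsd2fl/fl libraries and from 914 to 1139 in the Nsd2ΔIE libraries. The 6 libraries differed in other respects that touch every comparison of the subunits. Xist had at most 4 counts in each Nsd2fl/fl library and at least 21217 in each Nsd2ΔIE library. The summed counts of 4 Y-linked genes were 6110, 5208 and 5058 in Nsd2fl/fl, against 0, 0 and 1 in Nsd2ΔIE. These are the counts of male Nsd2fl/fl and female Nsd2ΔIE tissue, in conflict with the description of all animals as male. Genotype and sex therefore cannot be told apart here. The summed FPKM (reads divided by gene length and library size) of 8 smooth muscle markers ranged from 536.6 to 1679 in Nsd2fl/fl and from 2143 to 5012 in Nsd2ΔIE, and the sums of 7 enteric neuron and of 6 adipocyte markers were also higher in every Nsd2ΔIE library than in any Nsd2fl/fl library. The sum of 8 epithelial markers ranged from 4926 to 8260 in Nsd2fl/fl and from 5492 to 5850 in Nsd2ΔIE. In the edgeR fit described below, 7 of these 8 were lower in Nsd2ΔIE, against 56.3% of all genes, and Cdx2 was higher. Their median log2 fold change was -0.31, beside -0.04 over all genes. Of the 8, 0 had an unadjusted p under 0.05, against 11.1% of all genes. The first principal component of all genes other than the members held 51% of the variance and set Nsd2fl/fl replicates 1 and 3 and Nsd2ΔIE replicate 1 apart from the other libraries. The part of these differences in the subunit values was not tested.

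Short stretches around the starts of the genes were examined because members of a class moved together between libraries. RefSeq windows (GRCm38.p6, 250 bases before to 50 bases after each start) were at hand for 36 of the 43 members. They were searched on both strands for TGACNNNGC, the core of the antioxidant response element bound by the Nfe2l1 and Nfe2l2 family, for TTCNNNGAA, a STAT-like site, for GAAANNGAA, an IRF-like site, and for CCAAT. The catalytic subunits with a hit and the Psme1 gene are printed here 5′ to 3′ on the strand of the gene, with the matching letters (or their reverse complement) in capitals.

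Psmb5, TGACNNNGC, chr14:54618026-54618075, minus strand: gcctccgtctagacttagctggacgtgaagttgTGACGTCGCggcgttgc
Psmb6, TGACNNNGC, chr11:70525327-70525356, plus strand: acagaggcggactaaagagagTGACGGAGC
Psmb8, TTCNNNGAA, chr17:34198088-34198117, plus strand: tcctccgctgTTCCCAGAAgatgccccccc
Psmb9, CCAAT, chr17:34187321-34187350, minus strand: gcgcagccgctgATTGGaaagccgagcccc
Psme1, GAAANNGAA, chr14:55578494-55578523, plus strand: gagctgtgctTTCGCTTTCccttcccgctg

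The 50 bases of Psmb5 end before any annotated exon. The other stretches of 30 bases lie in an exon of GENCODE M21 (Psmb8, Psmb9 and Psme1) or inside the RefSeq gene span (Psmb6). The gene to which each exon belongs was not recorded. The Psme1 stretch begins at the RefSeq start itself, so its match lies downstream of that start. For Psmb6 the annotated starts differ. TGACNNNGC was present in 2 of 11 constitutive core windows, 3 of 17 regulatory particle windows and 0 of 5 immunoproteasome windows, against 14% of the 27025 genes with a window. GAAANNGAA was present in 1 of the 5 immunoproteasome genes and in 5 of the 28 genes of the constitutive core and regulatory particle, against 9.76% of all genes, so these letters did not separate the classes. TTCNNNGAA was present only in Psmb8 and in Psmd2 among the 36 members (5.56%, against 9.55% of all genes). CCAAT was present in 14 of the 36 members (38.9%, against 41.1%).

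The constitutive core had the highest summed FPKM of the classes and its genes were expressed at similar levels. Apart from Psma3, the 13 core subunits had mean FPKM values between 70.35 (Psma5) and 200.8 (Psmb3) over the 6 libraries, and 12 of these 13 lay above 95% of the 16347 genes tested. Psmb3, a non-catalytic beta subunit, was the highest, with 157.5, 204.4 and 229.8 FPKM in the Nsd2fl/fl libraries and 185.7, 210.1 and 217.6 FPKM in the Nsd2ΔIE libraries. Psma3, an alpha ring subunit, was the lowest at 22.16, 30.11 and 33.48 FPKM in Nsd2fl/fl and 25.93, 28.55 and 29.71 FPKM in Nsd2ΔIE. Its deposited FPKM implies a gene length of 3325 bases, whereas its longest coding sequence has 765 bases. Per kilobase of coding sequence, an alternative chosen after seeing the data, the fold between the highest and lowest core subunit shrank from 7.09 to 2.33, with Psmb1 the highest and Psma5 the lowest. In the order of the 14 core levels, only Psma5 and Psma3 were neighbours whose 6 values did not overlap.

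The regulatory particle was lower and more graded. Psmc3, an ATPase, was the highest of the 20 genes with a mean of 98.75 FPKM, and Psmd8, a lid subunit, followed with 91.44 FPKM. The chaperone Psmd9 was the lowest, with 7.373, 7.603 and 8.29 FPKM in Nsd2fl/fl and 7.677, 7.255 and 8.426 FPKM in Nsd2ΔIE. The other chaperones, Psmd10 with a mean of 20.5 FPKM and Psmd5 with 29.7 FPKM, were also among the 4 lowest. Most neighbours in the order overlapped. Only for Psmd8, Psmd11 and Psmd10 did the lowest of the 6 values lie above the highest value of the next gene. The fold between Psmc3 and Psmd9 was 12.7. Per coding kilobase Psmd8 was the highest, and the fold between it and Psmd9 was 4.32.

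Of the immunoproteasome genes, the cap subunits Psme2 and Psme1 reached the level of the core, with means of 130.7 and 122 FPKM. The catalytic subunits followed in the order Psmb10 (76.87 FPKM), Psmb8 (60.5 FPKM) and Psmb9 (26.21 FPKM), and this order was the same per coding kilobase. The lowest value of Psme1 lay above the highest of Psmb10, and the lowest of Psmb8 above the highest of Psmb9. Psme2 has a near-identical copy, Psme2b, which the tables list with 1277 to 2199 counts, so that the division of reads between them is uncertain. Psme3, the nuclear activator, had a mean of 28.3 FPKM and Psme4 one of 15.68 FPKM. Psma8, the testis form of an alpha subunit, had 7, 2 and 2 counts in Nsd2fl/fl and 2, 4 and 1 counts in Nsd2ΔIE. Psmb11, the thymus-specific catalytic subunit, had 0 counts in each Nsd2fl/fl library and 1, 0 and 1 counts in Nsd2ΔIE, at or under the 3 counts that a count of 0 allows. Both were too low to be tested, and the remaining 41 members had between 717 and 9050 counts in each library.

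**Figure D1:**
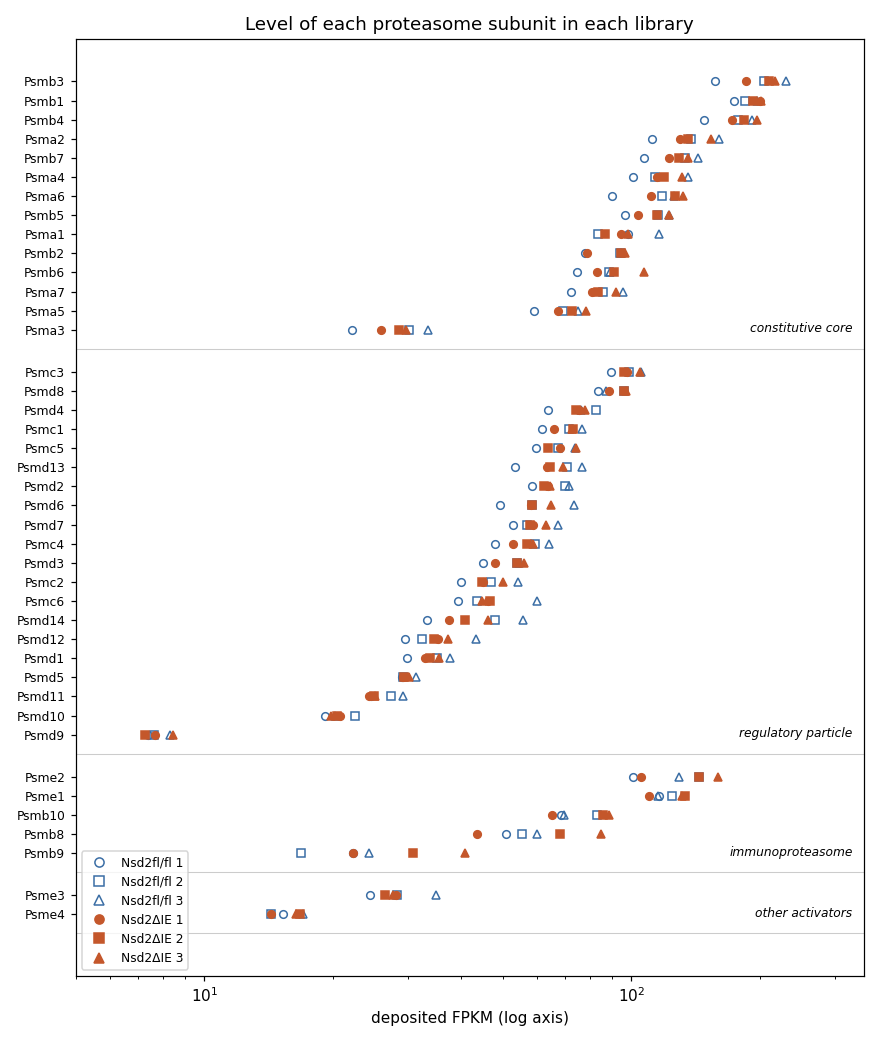
Deposited FPKM (log axis) of the 41 tested subunits in each of the 6 libraries, by class and ordered by mean level, with open blue symbols for Nsd2fl/fl and filled orange symbols for Nsd2ΔIE and 1 shape per replicate number. Core subunits other than Psma3 have means from 70.35 to 200.8 FPKM, Psmd9 lies lowest near 7.771 FPKM, and the symbols of both genotypes intermingle for most genes.

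To ask whether loss of epithelial NSD2 altered the expression of the proteasome, the counts of all genes were compared with edgeR's quasi-likelihood test. No subunit passed the threshold. Of the 41 tested members, 0 had an adjusted p under 0.05 (0.0306% of all 16347 genes), and DESeq2 also called 0 (2.79% of the 16333 genes with an adjusted p). Of the same 41, 0 had an unadjusted p under 0.05, against 11.1% of all genes. Accordingly none passed the criterion of the study, an unadjusted p under 0.05 together with a log2 fold change beyond 0.32 in size, which 8.05% of all genes passed upwards and 2.21% downwards. Standard errors of the members' log2 fold changes were between 0.0989 and 0.23, with a median of 0.147.

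The estimates themselves were small and mostly negative. The log2 fold change of Nsd2ΔIE over Nsd2fl/fl was below 0 for 37 of 41 members, against 56.3% of all genes, and ranged from -0.28 for Psmd14 to 0.43 for Psmb9. The median was -0.11 over all subunits, -0.09 in the constitutive core, -0.14 in the regulatory particle and -0.01 in the immunoproteasome, beside -0.04 over all genes. Over the refits the immunoproteasome median ran from -0.13, with the sign of the first principal component as covariate, to 0.14, without Nsd2ΔIE replicate 1, and the core median turned to 0.04 without Nsd2fl/fl replicate 3. The sign depended on the scaling, since library totals alone, without TMM factors, raised the median of all genes by 0.127 to 0.09. With library totals, 13 of 41 members were below 0 (35% of all genes), and with upper-quartile factors 30 of 41 (45.6% of all genes). These scalings shift all genes by nearly the same amount, so positions relative to the median of all genes are nearly fixed across them. In each of these 3 scalings 32 of 41 members lay below that median, namely 9 of 14 core subunits, 20 of 20 regulatory particle genes and 1 of 5 immunoproteasome genes. The number was 28 of 41 on log2(FPKM + 1) values and ran from 20 to 39 with a library left out. With the sign of the first principal component as covariate it was 40 of 41, with 14 of 14 core and 4 of 5 immunoproteasome genes. Relative to the median of all genes, the regulatory particle median was -0.10 with TMM and -0.09 with library totals.

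**Figure D2:**
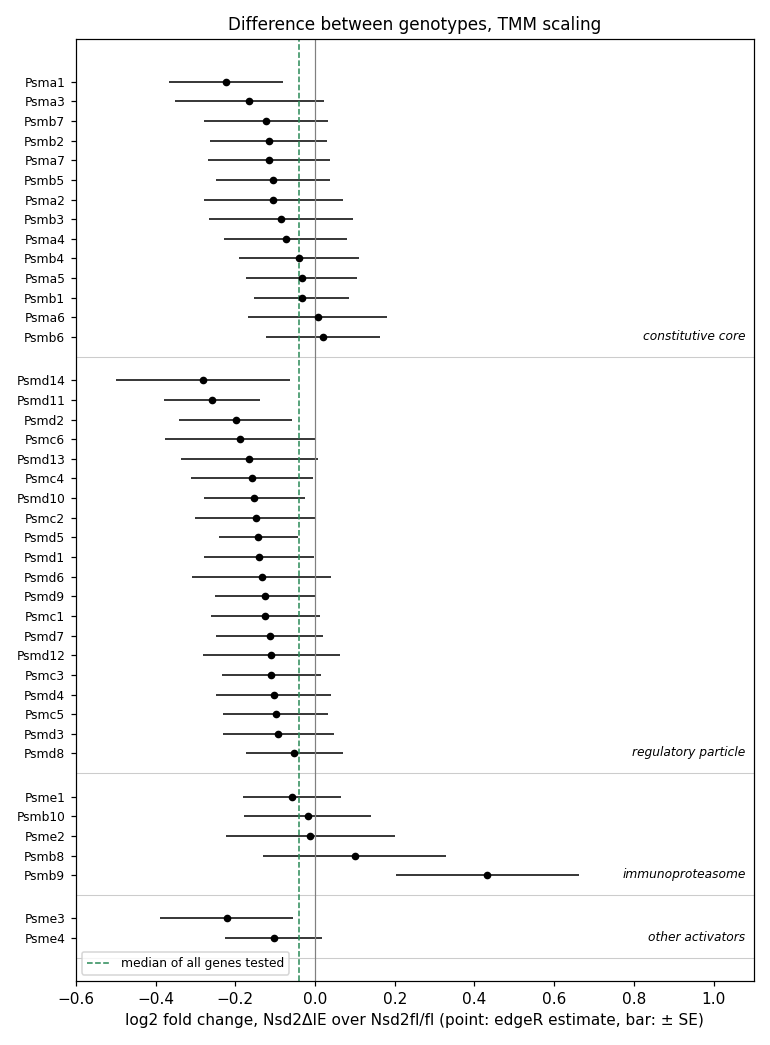
Log2 fold change of Nsd2ΔIE over Nsd2fl/fl for the 41 tested subunits by class (points, edgeR estimates with TMM scaling; bars, ± SE; dashed line, median of all 16347 genes tested at -0.04). The 20 regulatory particle genes lie to the left of the dashed line, Psmb9 lies farthest to the right at 0.43, and 0 members passed the adjusted threshold.

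Within the regulatory particle, the smallest p belonged to Psmd11, a scaffold subunit of the lid. It had 24.51, 27.43 and 29.2 FPKM in Nsd2fl/fl and 24.33, 24.93 and 25.05 FPKM in Nsd2ΔIE. The Nsd2ΔIE values were close together and overlapped with the lowest Nsd2fl/fl library. Its log2 fold change was -0.26 (SE 0.121, unadjusted p = 0.0715, edgeR adjusted p = 0.492). Psmd14, the deubiquitinase of the lid, had the most negative estimate, -0.28 (SE 0.218), with values from 33.31 to 55.71 FPKM in Nsd2fl/fl and from 37.43 to 46.13 FPKM in Nsd2ΔIE. Among the 41 members, Psmd5 was the only one whose TMM-scaled CPM (counts scaled to a common library size) did not overlap between the groups. Its values were 58.98, 64.74 and 68.68 CPM in Nsd2fl/fl and 58.18, 58.84 and 57.29 CPM in Nsd2ΔIE. On the deposited FPKM they overlapped, with 29.08, 29.13 and 31.3 in Nsd2fl/fl, against 29.14, 29.42 and 30.14 in Nsd2ΔIE. On TMM-scaled CPM such a separation downwards was seen in 7.28% of all genes, and upwards in 11.4% of all genes and 0 members. Psmd14 and Psmd5 were named after their values were seen, and the adjusted p of Psmd5 was 0.639.

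In the constitutive core, Psma1, an alpha ring subunit, had the smallest p. Its values were 98.38, 83.48 and 116.4 FPKM in Nsd2fl/fl and 94.44, 86.77 and 98.25 FPKM in Nsd2ΔIE, and the ranges overlapped. The log2 fold change was -0.22 (SE 0.144, adjusted p = 0.617). Psmb5, which carries the chymotrypsin-like activity, had 96.58, 115.6 and 122.4 FPKM in Nsd2fl/fl and 103.9, 115.2 and 122.5 FPKM in Nsd2ΔIE, nearly the same set of values. Psmb6, the caspase-like subunit, had 74.72, 88.78 and 89.2 FPKM against 83.1, 91.34 and 107 FPKM. Psmb7, the trypsin-like subunit, had 107.4, 133.6 and 143.1 FPKM against 122.3, 129.5 and 135.5 FPKM. In each of these catalytic subunits, the groups overlapped and Nsd2fl/fl replicate 1 was the lowest library. Their log2 fold changes were -0.10, 0.02 and -0.12 (edgeR adjusted p = 0.811, 0.969 and 0.795).

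Among the other activators, Psme3 had 24.4, 28.28 and 34.79 FPKM in Nsd2fl/fl and 28.12, 26.47 and 27.73 FPKM in Nsd2ΔIE. The Nsd2ΔIE values fell inside the Nsd2fl/fl range. The log2 fold change was -0.22 (SE 0.166, adjusted p = 0.661).

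The core and regulatory particle genes moved together between libraries of the same genotype. On TMM-scaled CPM, Nsd2fl/fl replicate 1 was the lowest library for 30 of the 41 members, including 12 of 14 core and 16 of 20 regulatory particle genes, whereas it was the lowest for 16.7% of all genes. Nsd2fl/fl replicate 3 was the highest for 30 members, again 12 core and 16 regulatory particle genes, and for 23.9% of all genes. For 29 of the 41 members, the 3 Nsd2ΔIE libraries lay inside the Nsd2fl/fl range on this scale, and for 23 on the deposited FPKM. The same count was not made over all genes, so it is not read as particular to the members. On the deposited FPKM, Nsd2fl/fl replicate 1 was the lowest for 33 members, while the highest was Nsd2fl/fl replicate 3 for 23 and Nsd2ΔIE replicate 3 for 15. Shares of all genes were not counted for these extremes on FPKM. The median coefficient of variation of the 41 members was 16.2% among Nsd2fl/fl and 4.94% among Nsd2ΔIE libraries, beside 19.7% and 12% for all genes. It was lower in Nsd2ΔIE for 14 of 14 core and 20 of 20 regulatory particle genes, and for 73.02% of all genes. On the deposited FPKM, which uses library totals, the members' values were 12.7% and 6.63%, beside 20.48% and 12.35% for all genes. The coefficient was then lower in Nsd2ΔIE for 12 of 14 core and 19 of 20 regulatory particle genes. Over all members it was lower for 33 of 41 (80.49%), against 73.85% of all genes. With 3 libraries a group this is a description, and no test of it was made.

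Marker sums of other cell types also differed between these libraries. The summed FPKM of 5 markers of proliferating cells (Mki67, Top2a, Ccnb1, Cdk1 and Pcna) was 103.4, 161.1 and 200.8 in Nsd2fl/fl, against 113.4, 145.2 and 161.6 in Nsd2ΔIE. The sum and each of the 5 markers were highest in Nsd2fl/fl replicate 3. Cdk1 and Pcna, which holds most of the sum, were lowest in Nsd2fl/fl replicate 1, whereas Mki67, Top2a and Ccnb1 were lowest in Nsd2ΔIE replicate 1, as was the sum on TMM-scaled CPM (281.1, beside 304.1 in Nsd2fl/fl replicate 1). The summed FPKM of the 14 core subunits was 1392, 1637 and 1811 in Nsd2fl/fl, against 1571, 1672 and 1793 in Nsd2ΔIE. The sum of 6 goblet cell markers was 10090, 6346 and 13970 in Nsd2fl/fl, against 9454, 5848 and 7783 in Nsd2ΔIE. The part of cell composition in the level of the subunits was not tested.

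The genotype estimates rested on these Nsd2fl/fl libraries. Without Nsd2fl/fl replicate 1, the median log2 fold change of all subunits was -0.24 and 10 members had an unadjusted p under 0.05, against 16.1% of all genes in that fit. Psmd14 at -0.50 and Psmd11 at -0.36 had the smallest p among them, with an adjusted p of 0.177 for Psmd14. Leaving out Nsd2fl/fl replicate 3 instead, the median was -0.01, 0 members had an unadjusted p under 0.05 (9.08% of all genes in that fit) and 25 of 41 were below 0. In that fit 14 of the 20 regulatory particle genes and 3 of the 14 core genes lay below the median of all genes.

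**Figure D3:**
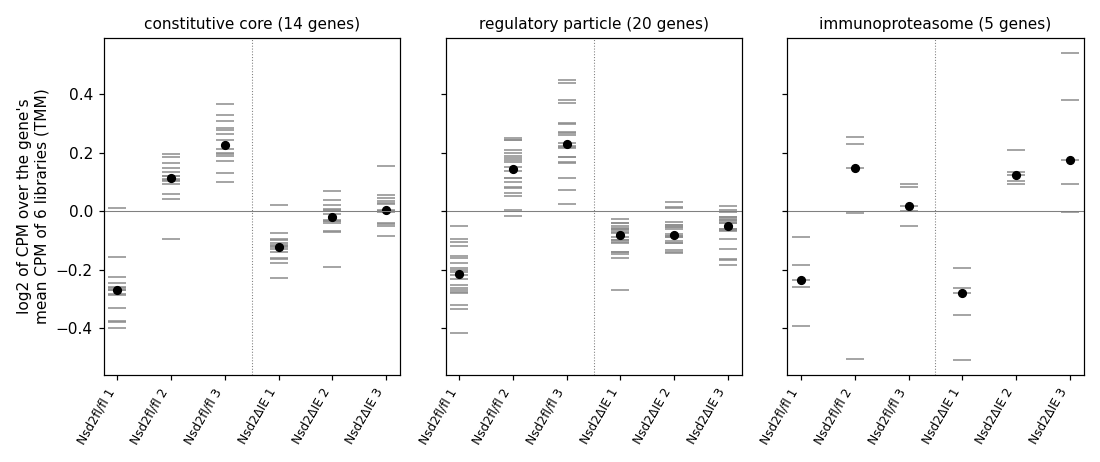
Log2 of the TMM-scaled CPM of each subunit over its own mean across the 6 libraries (grey dashes, 1 per gene; black dots, class median), in 3 panels for the constitutive core, the regulatory particle and the immunoproteasome, with a dotted line between the genotypes. Class medians of core and regulatory particle run from -0.27 and -0.21 in Nsd2fl/fl replicate 1 to 0.23 and 0.23 in replicate 3 and lie between -0.12 and 0.003 in Nsd2ΔIE, while the immunoproteasome median is lowest in Nsd2ΔIE replicate 1 at -0.28.

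The immunoproteasome genes followed other libraries than the core did on TMM-scaled CPM. Nsd2ΔIE replicate 1 was the lowest library for 3 of the 5, and the highest was Nsd2fl/fl replicate 2 for 3 and Nsd2ΔIE replicate 3 for the others. On the deposited FPKM, Psmb8, Psmb9, Psmb10 and Psme2 were highest in Nsd2ΔIE replicate 3, and Psme1 was highest in Nsd2ΔIE replicate 2. The coefficient of variation of the 5 genes had medians of 14.9% in Nsd2fl/fl and 18.7% in Nsd2ΔIE on TMM-scaled CPM. It was lower in Nsd2ΔIE for 2 of 5 genes, against 73.02% of all genes, or for 0 of 5 on the deposited FPKM, against 73.85%.

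Psmb9 (chr17:34182030-34187330), the immunoproteasome counterpart of Psmb6, had the largest positive estimate of all subunits. Its values were 22.31, 16.86 and 24.28 FPKM in Nsd2fl/fl and 22.25, 30.78 and 40.76 FPKM in Nsd2ΔIE. Nsd2ΔIE replicates 2 and 3 lay above every Nsd2fl/fl library, and Nsd2ΔIE replicate 1 lay within the Nsd2fl/fl range. The group means were 21.15 ± 3.84 and 31.26 ± 9.26 FPKM (SD, n = 3), giving a log2 fold change of 0.43 (SE 0.23, unadjusted p = 0.104, edgeR adjusted p = 0.551). Without Nsd2ΔIE replicate 1 the estimate was 0.62 with an unadjusted p of 0.0206, past the criterion of the study (11.6% of all genes in that fit had an unadjusted p under 0.05), and an adjusted p of 0.347. Without Nsd2ΔIE replicate 3 it was 0.23 with an adjusted p of 0.990, and without Nsd2fl/fl replicate 2 it was 0.31. With the sign of the first principal component as covariate it was 0.37.

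Psmb8 (chr17:34198195-34201454), which replaces Psmb5 and carries the STAT-like letters shown above, had 50.96, 55.47 and 60.14 FPKM in Nsd2fl/fl and 43.62, 67.99 and 84.8 FPKM in Nsd2ΔIE. Nsd2ΔIE replicate 1 was the lowest and Nsd2ΔIE replicate 3 the highest of the 6 libraries. The log2 fold change was 0.10 (SE 0.23, adjusted p = 0.892). Psmb10 (chr8:105935728-105938392), which replaces Psmb7, had 68.64, 83.28 and 69.5 FPKM against 65.19, 85.97 and 88.67 FPKM, with a log2 fold change of -0.02 (adjusted p = 0.974). These differences were smaller than the spread between replicates.

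The cap genes lie near each other on chromosome 14. Psme1 (chr14:55578494-55581527), with the IRF-like letters shown above, had 116.2, 124.9 and 115.5 FPKM in Nsd2fl/fl and 109.8, 133.5 and 131.7 FPKM in Nsd2ΔIE. Psme2 (chr14:55587440-55591101) had 101, 144 and 129.7 FPKM against 105.4, 144.5 and 159.5 FPKM. The groups overlapped for both genes, with log2 fold changes of -0.06 (adjusted p = 0.878) and -0.01 (adjusted p = 0.987). For both, Nsd2ΔIE replicate 1 was the lowest Nsd2ΔIE library.

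To set each immunoproteasome catalytic subunit against the constitutive subunit it replaces, their FPKM ratio was taken within each library, where scaling between libraries plays no part. The Psmb9 to Psmb6 ratio was 0.299, 0.19 and 0.272 in Nsd2fl/fl, against 0.268, 0.337 and 0.381 in Nsd2ΔIE. The mean log2 ratio differed by 0.39 between the genotypes (-2.01 ± 0.345 against -1.62 ± 0.258, SD, n = 3), with a two-sided exact permutation p of 0.3 and 0.6 after Benjamini-Hochberg adjustment over the 3 ratios. Leaving out Nsd2fl/fl replicate 2 lowered the difference to 0.19, and leaving out Nsd2ΔIE replicate 1 raised it to 0.53. The Psmb8 to Psmb5 ratio was 0.528, 0.48 and 0.491 in Nsd2fl/fl, against 0.42, 0.59 and 0.692 in Nsd2ΔIE, so that the 3 Nsd2fl/fl libraries lay inside the wider Nsd2ΔIE range (difference 0.15 on the log2 scale, exact p = 0.6). The Psmb10 to Psmb7 ratio was 0.639, 0.624 and 0.486 against 0.533, 0.664 and 0.654 (difference 0.09, exact p = 0.5). With 3 against 3 libraries this test cannot go below 0.1. Psmb8, Psmb9 and Psmb10 together held 33.7%, 31.5% and 30.3% of the summed FPKM of the 6 catalytic subunits in Nsd2fl/fl and 29.8%, 35.5% and 37% in Nsd2ΔIE. The lowest share and the 2 highest shares were thus all found in Nsd2ΔIE libraries.

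Psmb9 starts 225 bases from Tap1, which encodes a subunit of the peptide transporter of the endoplasmic reticulum and is transcribed in the opposite direction; the CCAAT letters shown above lie between their starts. Tap1 had 13.31, 8.706 and 12.04 FPKM in Nsd2fl/fl and 10.94, 15.69 and 20.3 FPKM in Nsd2ΔIE, which gave a log2 fold change of 0.34 (SE 0.233, edgeR adjusted p = 0.639). Both genes were lowest in Nsd2fl/fl replicate 2 and highest in Nsd2ΔIE replicate 3. The Psmb9 to Tap1 ratio of FPKM was 1.68, 1.94 and 2.02 in Nsd2fl/fl, against 2.03, 1.96 and 2.01 in Nsd2ΔIE. It varied 1.21-fold over the 6 libraries, while Psmb9 varied 2.42-fold and Tap1 2.33-fold. The 30 bases shown for Psmb9 lie in an exon of GENCODE M21 whose gene and strand were not recorded. Whether reads were counted by strand is not known.

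**Figure D4:**
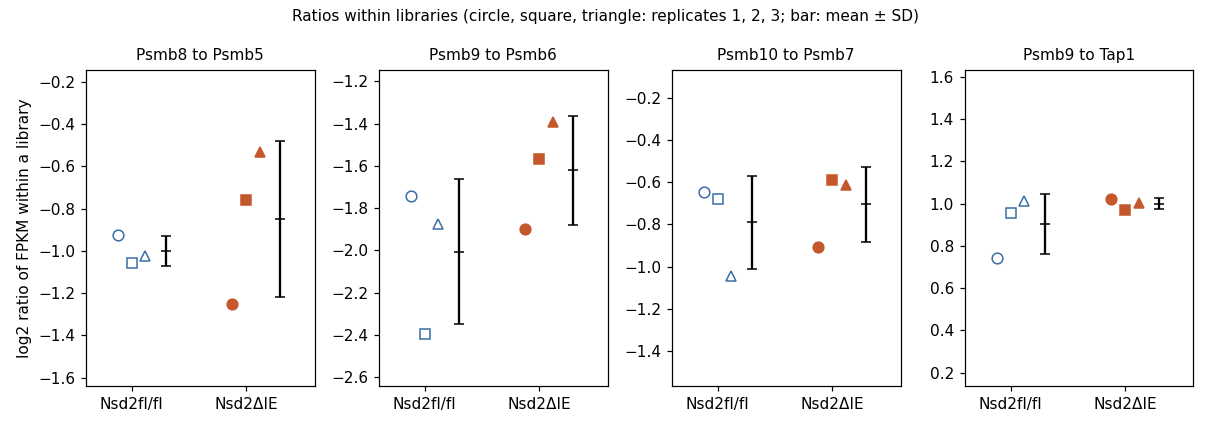
Log2 ratio of FPKM within each library for Psmb8 to Psmb5, Psmb9 to Psmb6, Psmb10 to Psmb7 and Psmb9 to Tap1 (open blue, Nsd2fl/fl; filled orange, Nsd2ΔIE; circle, square and triangle for replicates 1, 2 and 3; black bars, mean ± SD; each panel spans the same range of log2 units, placed at its own centre). The genotypes overlap in each of the 3 subunit pairs, with Nsd2ΔIE replicate 1 the lowest Nsd2ΔIE library, whereas the Psmb9 to Tap1 ratio stays between 1.68 and 2.03.

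Other genes of antigen presentation had values of the same kind. B2m, the light chain of MHC class I, had 743.1, 871.5 and 811.3 FPKM in Nsd2fl/fl and 591.7, 999.2 and 1032 FPKM in Nsd2ΔIE, with a log2 fold change of -0.02 (adjusted p = 0.978). Nsd2ΔIE replicate 1 was the lowest library for it as well. Of the 7 genes in the MHC class I and interferon list, 0 had an unadjusted p under 0.05, against 11.1% of all genes. The estimate was above 0 for 4 and below 0 for 3, against 56.3% of all genes below 0. The list median was 0.09, beside -0.04 over all genes. The summed FPKM of 4 leukocyte markers was 116.6, 68.53 and 124.9 in Nsd2fl/fl, against 119.2, 96.83 and 107.8 in Nsd2ΔIE. Among the Nsd2ΔIE libraries this sum was highest in replicate 1. The sum of 6 T cell markers was 16.1, 20.64 and 14.05 in Nsd2fl/fl, against 17.8, 24.03 and 24.65 in Nsd2ΔIE. The T cell sum was thus lowest in replicate 1 among the Nsd2ΔIE libraries, although 2 of the 6 markers, Cd4 and Cd2, were highest there. The part of leukocytes or T cells in the immunoproteasome values was not tested.

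None of the genes listed as building, regulating or supplying the proteasome had an unadjusted edgeR p under 0.05, against 11.1% of all genes. With lists this short, 0 calls say little about these genes. Of the 5 dedicated assembly chaperones of the core 0 had an unadjusted p under 0.05. Pomp, the maturation factor of the core, had 113.4, 147 and 146.1 FPKM in Nsd2fl/fl and 123.7, 144.3 and 154.6 FPKM in Nsd2ΔIE (log2 fold change -0.08, adjusted p = 0.871), and Nsd2fl/fl replicate 1 was again the lowest library. Of 13 partner genes, such as the ubiquitin receptor Adrm1 and the deubiquitinase Usp14, 11 had an estimate below 0, against 56.3% of all genes. Their median was -0.17, beside -0.04 over all genes, and 0 had an unadjusted p under 0.05. Nfe2l1, the transcription factor that raises subunit genes when proteasome activity falls, had 45.68, 33.31 and 32.44 FPKM in Nsd2fl/fl and 42.51, 36.31 and 38.43 FPKM in Nsd2ΔIE, and was thus highest in the library where most subunits were lowest. Its log2 fold change was -0.05 (SE 0.147, adjusted p = 0.924). Whether its level and that of the subunits are linked was not tested. Among the 4 genes of transcriptional control and the 5 that supply ubiquitin, 0 had an unadjusted p under 0.05, and the medians were -0.12 and -0.02.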

How the data were processed

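Colon RNA in 3 libraries each of Nsd2fl/fl and Nsd2ΔIE mice fed HFCD was analysed, with groups and replicate numbers taken from the labels. The authors deposited, for each library, whole-number read counts per gene symbol. The authors also deposited FPKM values, from which the counts and column totals imply 1 gene length shared by all libraries to within 0.0655 bases. Per the submitters' processing notes, fastp, HISAT2, HTSeq, R 3.2.0 and the mm10 build were used; the annotation and strand setting are not given in the sources used here, and members overlapping another listed gene (Psma3, Psma4, Psmd1, Psmd10, Psme1 and Psme4) may share reads with it. The chi-square statistic per degree of freedom was at least 35.5 for each pair of libraries, so all 6 were kept.

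Counts were fitted with edgeR 4.0.16 in R 4.3.3 (filterByExpr, 16347 genes, TMM factors, quasi-likelihood test, two-sided, no covariate), with Benjamini-Hochberg adjustment over all genes tested. Standard errors were taken as the absolute estimate over the root of the F statistic. The common dispersion was 0.0967, and the spread between libraries, not depth, limited the precision. A count of 0 allows 3 counts, at most 0.0789 CPM, for counting error only. Nothing says that the libraries come from separate animals, so the p-values measure the spread between these libraries.

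The members, the lists and the tests were chosen with earlier results of these data known, and no list was tested as a set. Values per library are given for the 6 catalytic subunits, Psme1, Psme2, the member of smallest p and the members of highest and lowest FPKM in each class (in brief for some), and for Nfe2l1, Pomp, Tap1 and B2m. Ratios were compared by exact permutation. Promoter windows and positions are from RefSeq (GRCm38.p6, the build also called mm10); coding lengths are from GENCODE M21. Alternatives were RLE, upper-quartile and no scaling factors, DESeq2 1.42.0, limma 3.58.1 (voom with sample weights, and on log2 FPKM with pseudocounts of 1 and 0.1), no filter, a replicate block, the sign of the first principal component as covariate, a fold change over 1.5, and each library left out in turn.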

Additional observations from a re-analysis of the deposited data

How the results depend on the processing

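No subunit had an adjusted p under 0.05 in any of the 16 refits, and Psmb9 and Tap1 (above 0) and Psma1, Psmd11 and Psme3 (below 0) kept their direction in all 16. With library totals alone, 13 subunits were below 0, the median of all genes was 0.086, and the log2 fold changes turned positive for Psmb5 (0.0304), Psmb7 (0.012), Psmb10 (0.12), Psme1 (0.073), Psme2 (0.13), Nfe2l1 (0.074), Pomp (0.056) and B2m (0.11). With limma on log2(FPKM + 0.1) the count was again 13 and the median of all genes 0.094, with Psmb5 at 0.034, Psmb7 at 0.021, Psmb10 at 0.11, Psme1 at 0.068, Psme2 at 0.12, Nfe2l1 at 0.088, Pomp at 0.0597 and B2m at 0.072. A pseudocount of 1 gave 13 and 0.061, with Psmb5 at 0.034, Psmb7 at 0.021, Psmb10 at 0.11, Psme1 at 0.068, Psme2 at 0.12, Nfe2l1 at 0.086, Pomp at 0.059 and B2m at 0.072. Upper-quartile factors moved the median of all genes to 0.028 and turned Psmb10 (0.053), Psme1 (0.012), Psme2 (0.061), Nfe2l1 (0.022) and B2m (0.049). Voom with sample weights turned Psmb10 (0.054), Psme2 (0.084) and B2m (0.066), the unfiltered fit turned Psmb6 (-0.013), and the covariate for the first principal component turned Psmb6 (-0.049), Psmb8 (-0.082) and Nfe2l1 (0.014). The construction of these scalings gives the shift of all genes; the cause of the other turns was not tested.

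With a library left out, members of unadjusted p under 0.05 numbered from 0 to 10 and those past the study's criterion from 0 to 5. Both counts were above 0 only without Nsd2fl/fl replicate 1 (10 and 5) and without Nsd2ΔIE replicate 1 (1 and 1, Psmb9). Of all genes, 16.1% and 11.6% had an unadjusted p under 0.05 in those fits. The share of all genes past the study's criterion was not counted there, so the 5 and the 1 have no background beside them. Relative to the median of all genes, from 20 (without Nsd2fl/fl replicate 3) to 39 (without Nsd2fl/fl replicate 1) of the 41 members lay below it. The log2 fold changes then ranged from 0.23 to 0.62 for Psmb9, from -0.31 to -0.071 for Psma1, from -0.36 to -0.18 for Psmd11, from -0.37 to -0.053 for Psme3, from 0.13 to 0.53 for Tap1, from -0.24 to -0.012 for Psmb5, from -0.27 to -0.015 for Psmb7, from -0.098 to 0.098 for Psmb6, from -0.1 to 0.32 for Psmb8, from -0.11 to 0.11 for Psmb10, from -0.12 to 0.026 for Psme1, from -0.18 to 0.14 for Psme2, from -0.12 to 0.079 for Nfe2l1, from -0.23 to 0.0081 for Pomp and from -0.15 to 0.19 for B2m. The Psmb9 to Psmb6 difference ranged from 0.19 to 0.53, that of Psmb8 to Psmb5 from -0.0044 (without Nsd2ΔIE replicate 3) to 0.36, and that of Psmb10 to Psmb7 from -0.0396 (without Nsd2fl/fl replicate 3) to 0.19. Per coding kilobase, the fold between highest and lowest member was 2.33 in the core, 4.32 in the regulatory particle and 4.02 in the immunoproteasome.

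Whether libraries of the same replicate number are paired is not known. Their deviations from the group means correlated at 0.501, 0.643 and -0.166 for numbers 1, 2 and 3. With a replicate block, 0 subunits had an unadjusted p under 0.05, 37 were below 0 and the median log2 fold change of all subunits was -0.10, and no call changed.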
